A study of Homo sapiens with 3 samples.

Results

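Neuronal genes were examined in Rh-30, an established cell line of alveolar rhabdomyosarcoma (ARMS), a tumor of cells committed to skeletal muscle, that carries the PAX3-FOXO1 fusion gene. The group was a list of 38 genes whose proteins are known from nerve cells, out of 19775 genes represented on the array, and each gene was read from 1 probe set, chosen for the highest mean over the 3 arrays on the log2 scale. A probe set was paired with 37 of the 38 genes. NEUROD1, a neurogenic transcription factor, had no probe set paired with it alone in the platform table and was not analysed here. RNA came from Rh-30 cells transfected with an siRNA against the fusion transcript (siPAX3-FOXO1, here siPF), an siRNA against the gene of the surface protein B7-H3 (siB7-H3), or a control siRNA (siControl, here siCont), each at 5 nM and harvested after 24 h. One array was hybridized per condition, so no difference could be tested and every difference given lies between 2 arrays. The cells were of 1 line and each target was reached with 1 siRNA.

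Nerve cells extend axons along bundles of microtubules and neurofilaments, attach to each other through adhesion proteins of the immunoglobulin, neurexin and neuroligin families, and release transmitters and peptides from synaptic vesicles and dense-core granules. RNA-binding proteins of the ELAVL family stabilize many neuronal transcripts. The repressor REST keeps a large share of these genes silent outside the nervous system, and expression of some neuronal genes is a known trait of ARMS.

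The cells carried muscle markers, and each siRNA went with a lower level of a gene it was aimed at. All 13 measured genes of a skeletal muscle list reached an intensity of 135 on at least 1 array, among them MYOD1, the muscle-determining transcription factor, with 8688 in siPF, 13046 in siB7-H3 and 11471 in siCont. Of 8 measured glial genes, 2 did. The target of siB7-H3, CD276, was read at 1381 in siPF, 362 in siB7-H3 and 1486 in siCont, and FOXO1, whose exons form the end of the fusion transcript, at 249, 650.0 and 678. Which part of these transcripts each probe set reads was not examined, so the fusion transcript itself was not measured. The intensity of 135 served as the level limit and lay near the 60th percentile of the probe sets of each array, which was 137 in siPF, 135 in siB7-H3 and 132 in siCont.

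Of the 37 measured neuronal genes, 16 reached the level limit on at least 1 array and 14 on all 3. This was 43.2% of the measured neuronal genes, beside 53.6% of all genes (10601 of 19775). The 16 were ELAVL2, STMN3, RELN, L1CAM, NRCAM, NCAM1, NLGN1, TUBB3, MAP2, MAPT, MAP1B, DPYSL3, CRMP1, SYT1, VAMP2 and UCHL1. RELN was under the limit in siPF and MAP2 in siB7-H3. The same 16 genes were obtained when the limit was set on the geometric mean over the 3 arrays. Of the 16, MAP2 lay nearest the limit, with a highest intensity of 242, and GNAO1 and SNAP25 lay nearest under it, with 107 and 106. The other 21 genes were under the limit on all arrays. In this bulk RNA, a level shared by all cells and a higher level in a few cells cannot be told apart, nor can fewer cells with a transcript and less of it per cell. The intensity of a probe set also depends on its probes, so intensities of different genes were not ranked against each other.

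**Figure D1:**
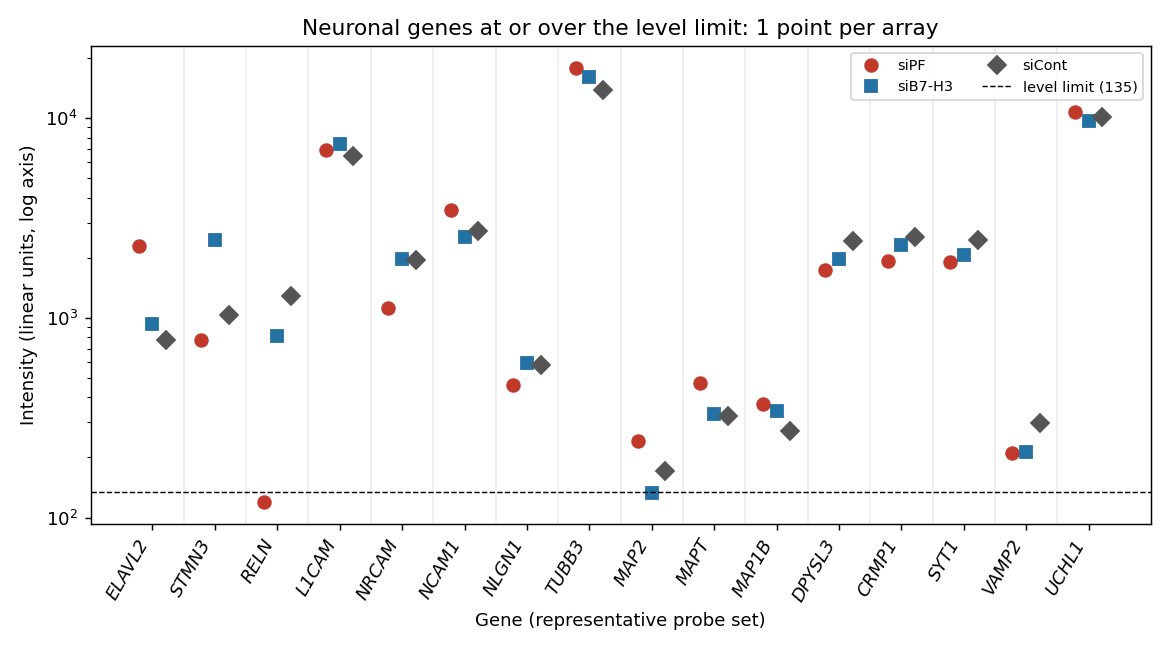
Intensity of the 16 neuronal genes at or over the level limit (horizontal axis, grouped by role) on a log axis, with 1 point each for siPF, siB7-H3 and siCont and the limit of 135 as a dashed line. RELN stands at 120.0 in siPF against 1287 in siCont, ELAVL2 is highest in siPF and STMN3 is highest in siB7-H3, whereas the 3 points of most other genes lie close together.

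Most of these 16 genes were within 2-fold of siCont on both knockdown arrays, and 3 were not. In siPF, RELN was lower and ELAVL2 higher than in siCont by more than 2-fold, and in siB7-H3 STMN3 was higher. That is 1 of 16 higher in siPF, where 1.40% of the 10601 genes at or over the limit were past 2-fold higher, and 1 of 16 lower, where 1.16% were. In siB7-H3 it is 1 of 16 higher, with 0.868% of all genes at this level, and 0 of 16 lower, with 0.821%. Of the 16 genes 8 were above and 8 below siCont in each comparison, and 52.6% of all genes at this level were above siCont in siPF and 52.8% in siB7-H3. For the 16, the log2 difference had a median of -0.12 in siPF and -0.03 in siB7-H3, whereas all genes at this level had 0.02 in both. Both comparisons share the siCont array. The members were chosen with earlier results of these data known, so no excess over all genes is read from these counts.

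In place of replicates, probe sets of 1 gene show how closely 2 readings of a transcript on these arrays came together. Over 4867 genes with 2 probe sets at or over the limit on all arrays, the log2 differences of the 2 brightest probe sets lay a median of 0.20 apart in siPF and 0.18 in siB7-H3, and at the 95th percentile 0.69 and 0.66. This distance carries the error of the probes and differences between isoforms, not the spread between cultures.

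RELN encodes reelin, a secreted glycoprotein that steers migrating neurons in the developing cortex. Its intensity was 120.0 in siPF, 811 in siB7-H3 and 1287 in siCont. The level in siPF was below the level limit and apart from the other 2 arrays, and siB7-H3 lay between siPF and siCont. The log2 difference was -3.42 in siPF, a 10.7-fold lower intensity, and -0.67 in siB7-H3, a 1.59-fold lower one. With the siPF value set to the limit the log2 difference in siPF was -3.25. RELN had 1 probe set, so no other reading of its transcript was at hand.

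Reelin binds the receptors VLDLR and LRP8 (ApoER2), and inside the cell the adaptor DAB1 is phosphorylated by kinases of the Src family. DAB1 was dim, with an intensity of 22.8 in siPF, 18.4 in siB7-H3 and 63.5 in siCont. VLDLR was also under the limit, with 89.2 in siPF, 70.6 in siB7-H3 and 80.7 in siCont. LRP8 was read at 783 in siPF, 1075 in siB7-H3 and 652 in siCont, or 0.26 and 0.72 on the log2 scale relative to siCont, whereas its 2 other probe sets gave -0.40 and -0.27 in siPF and 0.12 and 0.15 in siB7-H3. The kinase FYN had 1275 in siPF, 1170 in siB7-H3 and 891 in siCont. Of 12 measured genes of reelin receptors and signalling, 11 reached the level limit and 0 were past 2-fold in either comparison, where 1.40% and 0.868% of genes at this level were past 2-fold higher. With shares this small, 0 of 11 is no result about the pathway.

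ELAVL2 encodes HuB, 1 of the neuronal ELAVL proteins. Its intensity was 2286 in siPF, 929 in siB7-H3 and 774 in siCont. The siPF array stood above the other 2, with a log2 difference of 1.56 in siPF, a 2.95-fold higher intensity, and 0.26 in siB7-H3. This was rank 34 from the highest in siPF among genes at or over the limit. The other ELAVL2 probe set did not show it, with 238 in siPF, 177 in siB7-H3 and 251 in siCont, or log2 differences of -0.08 and -0.50. The 2 readings lay further apart in siPF than those of 95% of genes with 2 such probe sets, and the positions of the probes along the ELAVL2 isoforms were not used here. ELAVL3 and ELAVL4, the genes of HuC and HuD, were dim. ELAVL3 had 7.504 in siPF, 10.0 in siB7-H3 and 25.5 in siCont, and ELAVL4 had 40.9, 53.4 and 29.5.

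STMN3 encodes a neuronal stathmin (SCLIP), a protein that binds tubulin and destabilizes microtubules. Its intensity was 778 in siPF, 2446 in siB7-H3 and 1033 in siCont. Here siB7-H3 stood above both other arrays, with a log2 difference of 1.24 in siB7-H3, a 2.37-fold higher intensity, and -0.41 in siPF. It had rank 41 from the highest in siB7-H3. The second STMN3 probe set gave the same picture at a lower level, with 62.9 in siPF, 164 in siB7-H3 and 67.6 in siCont, or log2 differences of -0.10 and 1.28. STMN2 and STMN4, the other neuronal stathmins of the list, were dim, with at most 11.3 and 63.8 on any array at any of their probe sets.

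**Figure D2:**
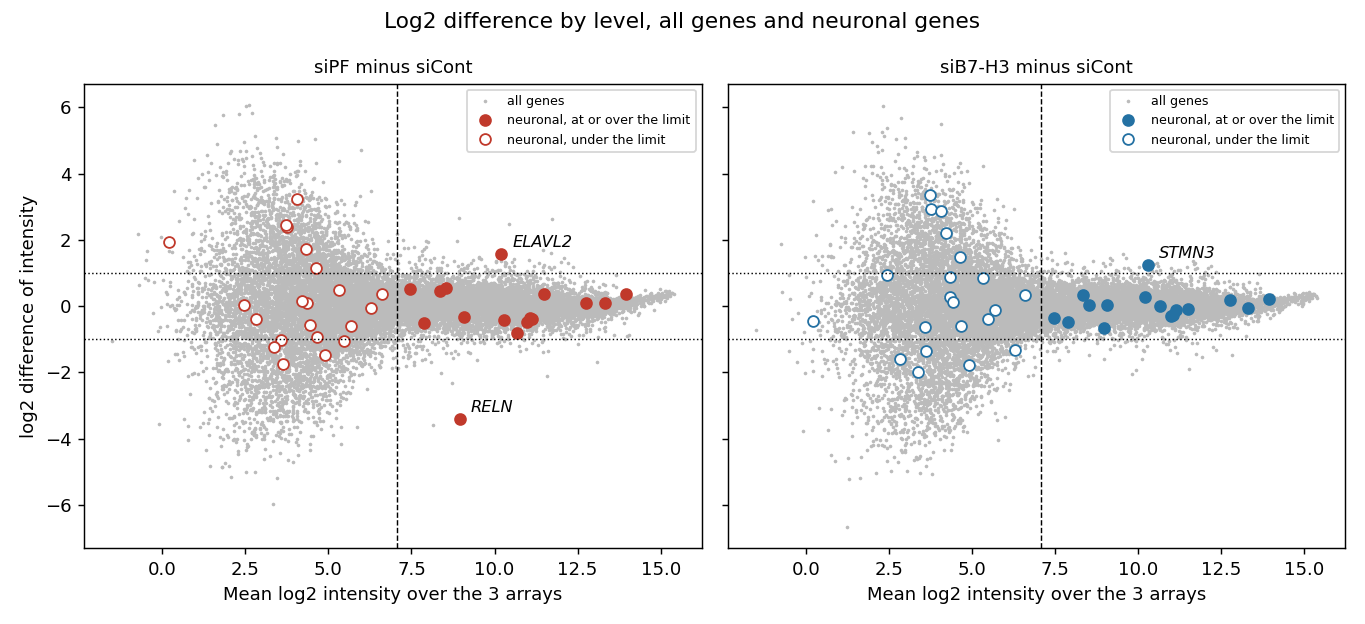
Log2 difference to siCont (vertical axis) against the mean log2 intensity over the 3 arrays (horizontal axis) for all 19775 genes in grey and the 37 neuronal genes as circles, filled at or over the level limit (dashed line) and open under it, for siPF on the left and siB7-H3 on the right. RELN (-3.42), ELAVL2 (1.56) and STMN3 (1.24) lie at the edge of the grey band of their level or outside it, past the dotted lines of 2-fold, and the open circles lie within the wide spread of the dim genes.

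The promoters of these 3 genes are shown because they are the members past 2-fold at a level over the limit. Each is the stretch of 250 bases before the transcription start on the strand of the gene, from RefSeq on GRCh38.p14, written 5′ to 3′. For ELAVL2 the start farthest upstream of 6 was taken. Capitals mark matches on either strand to CANNTG (the E-box of basic helix-loop-helix factors such as MYOD1 and MYOG), to TAATTA (a core of homeodomain sites), to GTCAC (a core of paired domain sites) or to CAGCACC (part of a half-site of REST).
RELN, chr7:103989659-103989908, minus strand: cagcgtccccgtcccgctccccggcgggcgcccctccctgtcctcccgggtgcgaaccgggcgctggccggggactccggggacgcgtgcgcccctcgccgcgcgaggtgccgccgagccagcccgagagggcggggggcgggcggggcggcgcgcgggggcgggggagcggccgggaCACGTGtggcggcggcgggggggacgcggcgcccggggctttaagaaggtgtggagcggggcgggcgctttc
ELAVL2, chr9:23826241-23826490, minus strand: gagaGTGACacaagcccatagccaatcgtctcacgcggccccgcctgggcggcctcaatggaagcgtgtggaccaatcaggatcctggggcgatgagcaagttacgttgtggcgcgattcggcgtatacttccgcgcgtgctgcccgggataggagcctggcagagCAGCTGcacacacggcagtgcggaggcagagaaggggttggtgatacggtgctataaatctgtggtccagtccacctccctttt
STMN3, chr20:63652767-63653016, minus strand: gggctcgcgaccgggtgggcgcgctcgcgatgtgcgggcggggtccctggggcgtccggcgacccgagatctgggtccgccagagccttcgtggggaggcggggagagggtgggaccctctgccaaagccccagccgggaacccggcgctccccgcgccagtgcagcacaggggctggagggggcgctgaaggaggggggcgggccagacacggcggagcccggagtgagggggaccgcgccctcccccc
The RELN stretch held 1 E-box (CACGTG) and no other match, the ELAVL2 stretch 1 E-box (CAGCTG) and 1 GTCAC, and the STMN3 stretch none of the 4 motifs. The 2 E-boxes thus differ in their middle bases, and which factors bind them was not tested. No matches overlapped. Over 35116 RefSeq promoter windows of this length, 61.8% held an E-box, 37.3% GTCAC, 6.16% CAGCACC and 4.35% TAATTA. Of the 5 other ELAVL2 windows, 2 held TAATTA. E-boxes were also found among these 5, 3 in 1 window and 1 in another, whereas GTCAC and CAGCACC were not. The GC content was 83.2% for RELN, 60.4% for ELAVL2 and 78.0% for STMN3, beside a median of 58.0% and a 95th percentile of 78.4% over all windows. Promoters were found for 14 of the 16 genes at or over the limit, 32 windows in all, of which 17 held an E-box, 7 GTCAC, 4 TAATTA and 2 CAGCACC.

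The adhesion genes at or over the limit were L1CAM, NRCAM, NCAM1 and NLGN1. NRCAM, an axonal adhesion protein of the L1 family, had an intensity of 1116 in siPF, 1970 in siB7-H3 and 1948 in siCont. The siPF array stood below the other 2, with a log2 difference of -0.80 in siPF, short of 2-fold, and 0.02 in siB7-H3. A second NRCAM probe set gave 141 in siPF, 250 in siB7-H3 and 224 in siCont, or -0.67 and 0.15. NLGN1, a postsynaptic partner of the neurexins, had 462 in siPF, 595 in siB7-H3 and 578 in siCont, a log2 difference of -0.32 in siPF and 0.04 in siB7-H3, and its second probe set gave -0.80 and -0.19. For both genes siPF was thus the lowest array at each probe set.
L1CAM, the namesake of the L1 family, had 6899 in siPF, 7406 in siB7-H3 and 6489 in siCont, and its dim second probe set, at most 102 on any array, gave log2 differences of -0.69 in siPF and 1.13 in siB7-H3. NCAM1 (CD56), an adhesion protein of neurons that myoblasts also carry, had 3475 in siPF, 2554 in siB7-H3 and 2710 in siCont. All 7 probe sets of NCAM1 were above siCont in siPF, with log2 differences of 0.17 to 0.64, and in siB7-H3 they ranged from -0.09 to 1.05. The dim adhesion genes were CNTN1, an axonal contactin, with at most 62.6 on any array, CNTNAP2, which acts beside the nodes of myelinated axons, with at most 22.8, and NRXN2, a presynaptic neurexin, with at most 30.6.

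Genes of microtubules and growth cones made up 6 of the 16. TUBB3, the neuronal class of beta-tubulin, had an intensity of 17907 in siPF, 15998 in siB7-H3 and 13866 in siCont, and its second probe set 10923, 8809 and 10248. Both TUBB3 probe sets are of the kind that can bind several transcripts, and the part of other tubulins in these values was not tested. In siB7-H3 they went opposite ways, with log2 differences of 0.21 and -0.22.
The microtubule-associated proteins were all higher in siPF than in siCont at their representative probe sets, by less than 2-fold. MAP2, the dendritic form, had 242 in siPF, 133 in siB7-H3 and 171 in siCont, and a dim second probe set gave -0.26 in siPF and -0.72 in siB7-H3. MAPT, the gene of tau, had 474 in siPF, 329 in siB7-H3 and 324 in siCont. All 6 MAPT probe sets were above siCont in both knockdowns. The log2 differences of the 4 that reached the limit were 0.22 to 0.70 in siPF and 0.02 to 0.68 in siB7-H3, and 2 dim ones gave 0.32 and 2.57 in siPF and 0.51 and 1.72 in siB7-H3. MAP1B, which is made early in axon growth, had 371 in siPF, 343 in siB7-H3 and 272 in siCont, with 0.45 and 0.34, and its 2 dim probe sets were also above siCont, with 0.29 and 2.64 in siPF and 0.23 and 2.98 in siB7-H3.
DPYSL3 and CRMP1, collapsin response mediators that pass repulsive guidance signals to the cytoskeleton, were lower in both knockdowns by less than 2-fold at their bright probe sets. DPYSL3 had 1736 in siPF, 1978 in siB7-H3 and 2414 in siCont. Its log2 difference was -0.48 in siPF and -0.29 in siB7-H3, and that of a second bright probe set was -0.50 and -0.56. A dim one gave -3.19 and -1.89. CRMP1 had 1920 in siPF, 2318 in siB7-H3 and 2533 in siCont, with -0.40 and -0.13. DPYSL2, a mediator of the same family outside the list, was not lower in siPF, with 4537 in siPF, 4004 in siB7-H3 and 4051 in siCont. GAP43, the growth cone protein, was dim, with at most 38.1 on any array at each of its 3 probe sets.

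**Figure D3:**
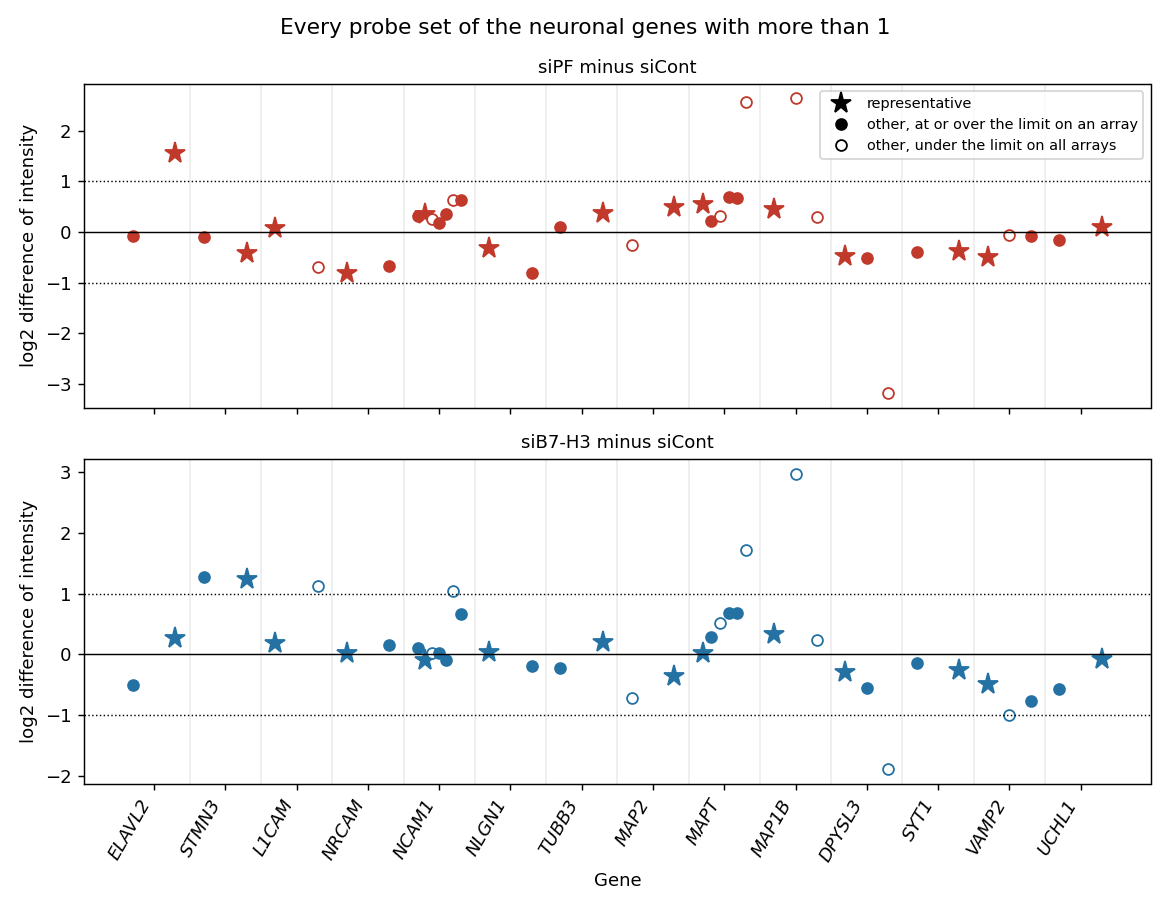
Log2 difference to siCont (vertical axis) of every probe set of the 14 genes at or over the limit with more than 1 probe set, for siPF above and siB7-H3 below. Stars are the representative probe sets, filled circles others that reached the limit on an array and open circles others that did not; ELAVL2 has 1.56 and -0.08 in siPF, whereas both probe sets of STMN3 lie past 2-fold with siB7-H3 (1.24 and 1.28).

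Of the vesicle genes, SYT1 and VAMP2 reached the limit. SYT1, the calcium sensor of transmitter release, had an intensity of 1903 in siPF, 2061 in siB7-H3 and 2464 in siCont. Its 2 probe sets gave log2 differences of -0.37 and -0.39 in siPF and -0.26 and -0.14 in siB7-H3. VAMP2, the SNARE protein of synaptic vesicles, had 210 in siPF, 213 in siB7-H3 and 297 in siCont, with -0.50 and -0.48, and the 2 other probe sets gave -0.07 and -0.08 in siPF and -0.99 and -0.77 in siB7-H3. Both genes were lower than siCont at each probe set in both knockdowns, by less than 2-fold. SNAP25, a SNARE protein of the presynaptic membrane, was under the limit, with 106 in siPF, 105 in siB7-H3 and 83.4 in siCont. SYP, the vesicle protein synaptophysin, had 8.61 in siPF, 11.3 in siB7-H3 and 17.5 in siCont, and SYT4 had 18.9, 23.7 and 36.1. UCHL1 (PGP9.5), a ubiquitin hydrolase abundant in neurons, had 10781 in siPF, 9626 in siB7-H3 and 10095 in siCont. Its log2 differences were 0.09 and -0.07, and those of its second probe set -0.16 and -0.57.

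Neurofilament and secretory granule genes were all dim. The neurofilament subunit genes NEFL, NEFM and NEFH and the related INA had at most 49.6 on any array at the representative probe set. The granule protein genes CHGA, CHGB, SCG2 and SCG3, the chromogranins and secretogranins of neuroendocrine cells, had at most 36.6. Several of these dim genes were past 2-fold all the same. CHGA had 18.9 in siPF, 35.8 in siB7-H3 and 3.48 in siCont, and NEFL had 38.3, 30.04 and 4.09. At another NEFL probe set the values were 2.14 in siPF, 5.498 in siB7-H3 and 40.6 in siCont, the opposite direction. GNAO1, the alpha subunit of the G protein Go, had 103 in siPF, 43.2 in siB7-H3 and 107 in siCont, and at another probe set 24.2, 22.4 and 100.5.
Over the 21 dim genes the intensities ranged up to 106 in siPF, 105 in siB7-H3 and 107 in siCont, with medians of 20.0, 26.2 and 18.7. In siPF 6 of them lay over 2-fold above siCont and 5 below it, where 19.3% and 18.9% of the 9174 genes under the limit were. In siB7-H3 5 were higher and 5 lower, where 17.9% and 19.4% were. The SD of the log2 difference over the genes under the limit was 1.42 in siPF and 1.41 in siB7-H3, against 0.39 and 0.35 over the genes at or over it. Of the 14 dim neuronal genes with more than 1 probe set, all probe sets had 1 sign in 4 genes in siPF and 5 in siB7-H3. Of the 14 such genes at or over the limit, this held for 10 in each comparison. Counted over all 37 measured genes, 7 lay over 2-fold above and 6 below siCont in siPF, beside 9.72% and 9.39% of all genes, and 6 were higher and 5 lower in siB7-H3, beside 8.75% and 9.45%. The dim genes make up most of these counts.

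**Figure D4:**
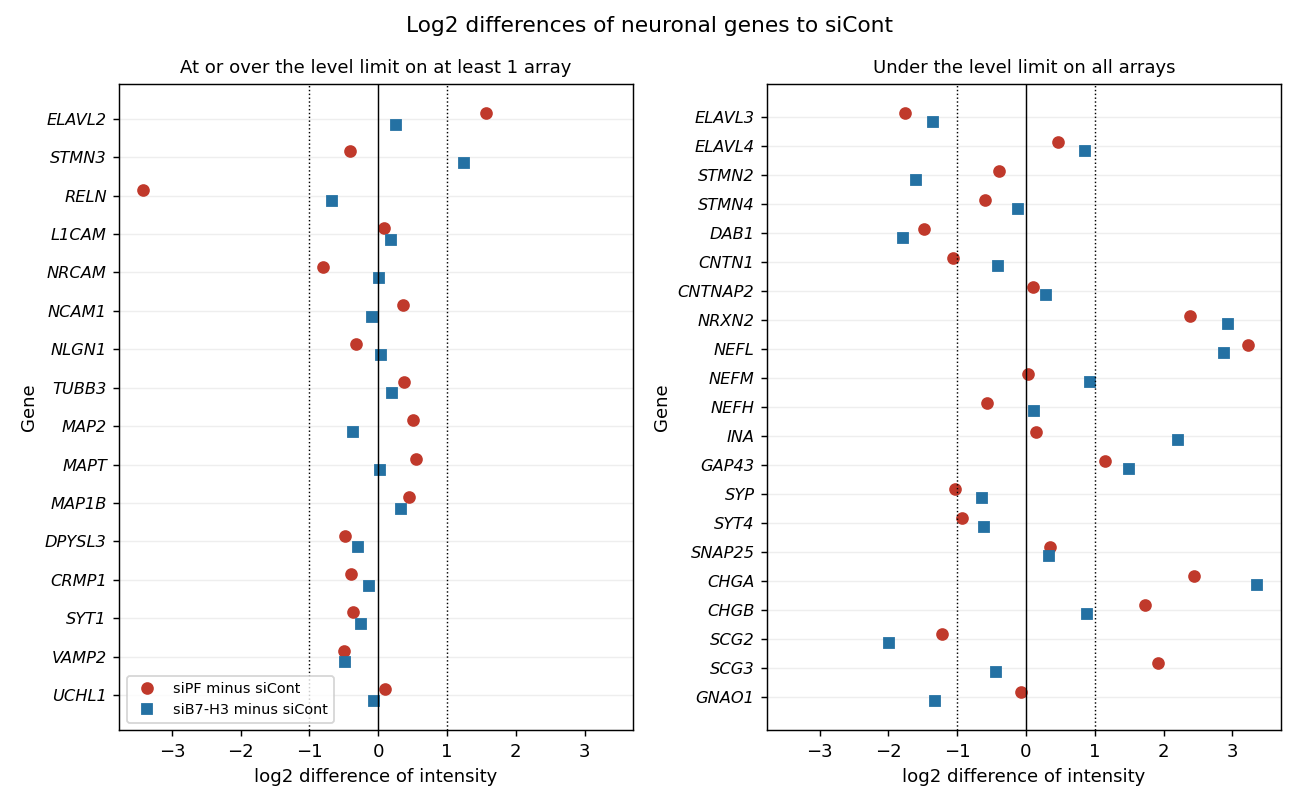
Log2 difference to siCont of each of the 37 measured neuronal genes in siPF (circles) and siB7-H3 (squares), for the 16 at or over the level limit on the left and the 21 under it on the right, with dotted lines at 2-fold. On the left 3 values pass 2-fold, RELN at -3.42 and ELAVL2 at 1.56 in siPF and STMN3 at 1.24 in siB7-H3, and on the right 11 do in siPF and 10 in siB7-H3.

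Lists of other genes of neuronal processes were read in the same way, and they were not limited to genes confined to nerve cells. Of 118 such genes in 7 lists (reelin signalling, vesicle release, axon growth, adhesion, RNA binding, transcription factors and neuroendocrine secretion), 110 were measured and 42 reached the level limit. Over all genes 53.6% reached it. By list, these were 11 of 12 measured genes of reelin signalling, 11 of 22 of axon growth and 6 of 12 of RNA binding. The other lists gave 7 of 20 for transcription factors, 4 of 21 for vesicle release, 2 of 9 for neuroendocrine secretion and 1 of 14 for adhesion. Of these 42, 0 lay over 2-fold above and 1 below siCont in siPF, and 0 were past 2-fold in siB7-H3, beside the 1.40% and 1.16% and the 0.868% and 0.821% of genes at this level. Their median log2 difference was 0.18 in siPF and 0.07 in siB7-H3. The 1 lower gene was POU4F1 (BRN3A), a transcription factor of sensory neurons, with an intensity of 676 in siPF, 1576 in siB7-H3 and 1542 in siCont. Its log2 difference was -1.19 in siPF and 0.03 in siB7-H3. Its second probe set, with 439 in siPF, 1092 in siB7-H3 and 1358 in siCont, gave -1.63 and -0.31. POU4F1 was thus lower in siPF at both probe sets.
The REST gene had 747 in siPF, 448 in siB7-H3 and 715 in siCont, a log2 difference of 0.06 and -0.67, but a second probe set over the limit gave 0.65 and 0.31 in the same order. All 13 measured genes of a list of REST, its cofactors and its regulators reached the limit. Of these 13, 0 were past 2-fold in either comparison, beside the same shares of genes at this level. On the same arrays the skeletal muscle list had a median log2 difference of 0.66 in siPF and 0.28 in siB7-H3, and 3 of its 13 genes (MYOG, TNNI1 and MYL4) were past 2-fold higher in siPF and 1 (MYOG) in siB7-H3, beside 1.40% and 0.868% of genes at this level. MYOG, the gene of myogenin, had 3386 in siPF, 1269 in siB7-H3 and 605 in siCont. These lists, too, were chosen with earlier results of these data known, so no excess is read from their counts. The part of these muscle genes in the differences of RELN, ELAVL2 and STMN3 was not tested.

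The genes whose 2 log2 differences were most like those of each of the 3 members were found among the 10601 genes at or over the limit, by the distance between the pairs of values. For RELN they were SLC33A2, LRRC10B and FLJ40288, at distances of 0.27, 0.28 and 0.91. The last was thus much less alike, with a log2 difference of -2.51 in siPF. LRRC10B had 65.9 in siPF, 428 in siB7-H3 and 792 in siCont, and the other 2 reached the limit only in siCont, where they were highest, at 152 and 149. For ELAVL2 they were FOXS1, MFAP4 and MEGF6, with intensities of 441, 635 and 766 in siPF and 151, 226 and 296 in siCont. For STMN3 they were MAPT-AS1, SCN3B and HELB, which reached the limit only in siB7-H3, where they were highest, with at most 174. Their log2 differences in siB7-H3 were 0.98, 0.93 and 0.97, short of 2-fold. Genes that pass the limit through 1 high array had to differ between arrays, so nothing is drawn from these likenesses. The likeness rests on 3 arrays and 2 differences that share siCont.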

How the data were processed

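Total Rh-30 RNA was made into biotin-labeled cRNA, which was put on 3 GeneChip U133 Plus 2.0 arrays, with no replicate. The deposited table holds linear intensities per probe set, for which the authors used Expression Console (Affymetrix, version 1.4.1). How probes were summarized is not given in the sources used here. After 2% of the probe sets were trimmed at each end, the mean was 500.1 on every array. Of 54675 probe sets, 41091 were named with 1 gene in the platform table, and 19775 genes were represented, each by its probe set of highest mean on the log2 scale. Intensities were taken to log2 without a floor and the value of siCont was subtracted. Differences of 1 or more in size, the study's threshold on the log2 scale, were counted as past 2-fold. No test was possible, and the number of arrays limits the precision.

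All members were named. Of the other lists, genes at or over an intensity of 135 on both arrays compared and past 2-fold were named, with REST, VLDLR, LRP8, CD276, FOXO1 and muscle markers. FYN and the genes in the other observations were chosen after their values were seen. The members and lists were chosen with earlier results of these data known. The alternatives changed the choice of probe set, the normalization, the treatment of low values and the level limit. Python 3.11.15, numpy 2.4.6, pandas 2.3.3 and matplotlib 3.10.9 were used. The code recovered changes put into simulated data, on which it was tested.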

Additional observations from a re-analysis of the deposited data

How the results depend on the processing

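The 1.56 of ELAVL2 in siPF was absent at its other probe set, which gave -0.078, little different from siCont. With the median over probe sets ELAVL2 had 0.74, which left 0 genes at or over the limit past 2-fold higher in siPF. RELN in siPF and STMN3 in siB7-H3 kept their direction and stayed past 2-fold under every alternative run, RELN without another probe set to compare. Most counts over all 37 measured genes fell when dim values were held back. With values under the limit set to it, 1 gene was higher and 1 lower in siPF, and 1 higher and 0 lower in siB7-H3, though no gene under 2 times the limit on its higher array can pass in this setting. With a pseudocount of 16, 2 were higher and 2 lower in siPF and 5 higher and 2 lower in siB7-H3. Leaving out probe sets of the _x_at and _s_at kinds is a different change, which drops genes that have no others, CHGA and INA among them. It gave 4 higher and 8 lower in siPF and 2 higher and 7 lower in siB7-H3, so the lower counts rose. Among the genes at or over the limit, the median of -0.12 in siPF became -0.28 with the median over probe sets and 0.011 with a limit of 100, and that limit also brought in 1 gene past 2-fold lower in siB7-H3 (GNAO1). The causes were not tested. In all, 83 values of counts and medians stayed within 1.5 times or a log2 distance of 0.1, under median centring and quantile normalization without exception. The limit set on the geometric mean, and the counts past 2-fold among the genes at or over the limit, were added after seeing the data. DPYSL3, past 2-fold lower without probe sets of these kinds (-3.19 in siPF and -1.89 in siB7-H3), was then read from a dim probe set.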

Other observations

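Some neuronal genes outside the list were higher on both knockdown arrays by less than 2-fold, and others were lower on both. ROBO1, an axon guidance receptor, had an intensity of 3284 in siPF, 3190 in siB7-H3 and 2068 in siCont, with log2 differences of 0.67 and 0.63 at its only probe set. SYT11, a synaptotagmin, had 335 in siPF, 316 in siB7-H3 and 192 in siCont, but a second probe set gave 0.37 and -0.32. NLGN2, the neuroligin of inhibitory synapses, had 385 in siPF, 314 in siB7-H3 and 227 in siCont at 1 of its 3 probe sets. Among the genes lower on both arrays at their representative probe sets were GPRIN1 and INSM1. GPRIN1 had 105 in siPF, which is under the limit, 146 in siB7-H3 and 196 in siCont. Its log2 differences were -0.90 in siPF and -0.43 in siB7-H3, and those of INSM1 were -0.43 and -0.47. Both have 2 probe sets, of which the second was not examined. These genes were chosen after their values were seen, and both comparisons use the siCont array.

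Of 20 measured genes of the list of neural transcription factors, 7 reached the limit, beside 53.6% of all genes. Most of the list was thus dim, NEUROG1, NEUROD2, PHOX2A and MYT1L among them. The genes given next were chosen after their values were seen. ZIC1, known from the developing hindbrain, had 3679 in siPF, 4613 in siB7-H3 and 3547 in siCont. SOX11 had 1838 in siPF, 1035 in siB7-H3 and 1270 in siCont, and INSM1, a factor of neuroendocrine cells, had 472, 460 and 637. Of the glial list, 2 of 8 measured genes reached the limit. OLIG2, a factor of oligodendrocyte precursors and 1 of the 2, had 267 in siPF, 417 in siB7-H3 and 374 in siCont.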
